A study of Mus musculus with 4 samples.

Results

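The 10 genes described here mark or arm regulatory T cells, and were taken by symbol from the 31053 genes of the deposited matrices: Foxp3, Ikzf2, Tnfrsf4, Tnfrsf18, Tnfrsf9, Il2ra, Nrp1, Lrrc32, Ccr8 and Penk. Each symbol matched 1 gene, and each of the 10 genes had at least 1 UMI (unique molecular identifier, a counted RNA molecule) in the T cells of every library. They were listed with their levels in the T cells of these libraries already known, so differences between the groups in T cells are given as a description. The data are 4 droplet single-cell RNA libraries of the lungs of mice carrying mouse small cell lung cancer cells that had been injected into the lung. The control mice received vehicle and isotype IgG, the second group an antibody to PD-1 (clone 29F.1A12) at 200 µg per mouse on Monday, Wednesday and Friday, the third YKL-5-124, an inhibitor of the kinase CDK7, at 10 mg per kg on weekdays, and the fourth both agents. All groups carried tumours, so no library shows a lung without one. Lungs were perfused, digested whole and sorted for live cells with DAPI before the 10x 3′ libraries were made, and each group has 1 library. The labels do not say how many animals stand behind a library, so a difference between treatments and a difference between libraries cannot be told apart, and no test between groups was made.

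Regulatory T cells restrain other T cells and are defined by the transcription factor Foxp3, with Ikzf2 (Helios) in many of them. They carry a high-affinity interleukin-2 receptor built with Il2ra (CD25), and they present or activate latent transforming growth factor beta through Lrrc32 (GARP) and Nrp1 (neuropilin-1). Tnfrsf4 (OX40), Tnfrsf18 (GITR) and Tnfrsf9 (4-1BB) are costimulatory receptors of the tumour necrosis factor (TNF) receptor family that are induced on activated conventional T cells as well, and Ccr8 is a chemokine receptor of tissue regulatory T cells and type 2 lymphocytes. Penk encodes proenkephalin, the precursor of opioid peptides, which some regulatory T cells make.

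Barcodes with 500 or more UMIs, of 300 or more genes, and no more than 10% of UMIs from mitochondrial genes were kept as cells. There were 3481 cells in the control, 2736 in the anti-PD-1, 4152 in the YKL-5-124 and 4042 in the combination library, with medians of 1939 to 2239 UMIs per cell. The libraries share cell barcodes: 658 barcodes were kept in 2 or more libraries and account for 2251 of the 14411 cells. Most of these cells were tumour cells (1357 of 2851) or passed no gate (616 of 1150), and 58 of the 3306 T cells were among them. Cells were assigned to 14 lineages by marker genes, and 683 cells that passed the gates of 2 lineages were left out. The T cells numbered 868 in the control, 606 in the anti-PD-1, 734 in the YKL-5-124 and 1098 in the combination library, with median UMIs of 1977, 2205.5, 2014 and 2393. The 10 T cell markers were all at least 2-fold higher in these cells than in the other gated cells pooled, and the same markers had chosen them. Levels below are in CPM, the UMIs of a gene per 1000000 UMIs of the cells named, summed over those cells, and intervals cover counting error at 95% only. UMIs of most of these genes came from few cells, so the spread between cells is wider than these intervals.

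Tnfrsf4, Tnfrsf18 and Tnfrsf9 lie on chromosome 4 of the mouse genome (GRCm38, GENCODE M21 locations). Tnfrsf4 spans chr4:156013843-156016612 and Tnfrsf18 chr4:156026164-156028895, both on the plus strand with 9551 bases between them, and Tnfrsf9 spans chr4:150914562-150946102 on the same strand. The promoter sequences of these receptors are shown because neighbouring or related receptor genes differed in their levels across cell types and groups. They are RefSeq windows of GRCm38.p6, plus strand, 5′ to 3′, from 250 bases before to 50 after a start site: chr4:156013445-156013744 for Tnfrsf4, chr4:156026072-156026371 for Tnfrsf18 and chr4:150927749-150928048 for the second listed start site of Tnfrsf9. Capitals mark matches to the motifs named after the sequences.
Tnfrsf4: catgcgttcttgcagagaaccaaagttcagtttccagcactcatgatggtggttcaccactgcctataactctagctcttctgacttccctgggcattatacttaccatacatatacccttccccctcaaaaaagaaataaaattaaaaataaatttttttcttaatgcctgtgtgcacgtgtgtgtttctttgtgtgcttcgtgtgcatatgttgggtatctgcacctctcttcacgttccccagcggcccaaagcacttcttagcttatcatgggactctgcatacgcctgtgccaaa
Tnfrsf18: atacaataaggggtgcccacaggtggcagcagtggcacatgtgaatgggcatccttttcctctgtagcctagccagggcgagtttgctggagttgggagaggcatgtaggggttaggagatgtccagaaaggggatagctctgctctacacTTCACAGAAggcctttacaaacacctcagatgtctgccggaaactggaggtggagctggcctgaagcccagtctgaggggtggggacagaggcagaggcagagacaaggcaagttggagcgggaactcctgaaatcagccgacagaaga
Tnfrsf9: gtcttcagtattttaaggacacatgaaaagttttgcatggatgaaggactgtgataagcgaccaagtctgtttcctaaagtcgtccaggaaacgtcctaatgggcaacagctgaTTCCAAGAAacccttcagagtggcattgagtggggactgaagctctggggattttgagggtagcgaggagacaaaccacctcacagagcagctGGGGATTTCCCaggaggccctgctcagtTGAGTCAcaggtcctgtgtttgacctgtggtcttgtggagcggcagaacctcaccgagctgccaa
Both strands were searched for an NF-kB motif (GGG, any 5 bases, then CC), a STAT motif (TTCNNNGAA), an AP-1 motif (TGANTCA), 2 cyclic AMP response elements (TGACGTCA and TGCGTCA), a forkhead motif (TGTTTAC) and a TATA box (TATAAA). The window at the second start site of Tnfrsf9 held a STAT match (TTCCAAGAA) 136 bases before the start, a pair of overlapping NF-kB matches (GGGGATTTCC and GGGATTTCCC) 43 and 42 bases before it, and an AP-1 match (TGAGTCA) 15 bases before it. The Tnfrsf18 window held 1 STAT match (TTCACAGAA) 99 bases before the start, and the Tnfrsf4 window held none of these letters, nor did the window at the first listed start site of Tnfrsf9 (chr4:150919905-150920204). Of 32851 mouse promoters of the same length, 50.8% held the NF-kB motif, 8.30% the STAT motif and 7.81% the AP-1 motif, so a match describes the sequence only.

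Foxp3 was a T cell transcript in these lungs. Its median over the 4 libraries was 13.98 CPM in T cells, from 8.41 to 22.6, and at most 0.422 in any other lineage; the T cell range did not overlap that of B cells, the next in order, and overlapped only that of ILC2s, where 1 UMI in 1 library gave 20.1. Ikzf2 was also highest in T cells, with a median of 182.9, and overlapped the range of basophils and mast cells, whose median was 103.4 from 14 UMIs. The other members were shared with or led by other lineages. Group 2 innate lymphoid cells (ILC2s), the tissue lymphocytes of type 2 immunity, led for Tnfrsf18, Il2ra and Ccr8. Tnfrsf18 had a median of 1435 in ILC2s (1163 to 1693), 281.2 in T cells (217.7 to 333.8) and 180.8 in natural killer (NK) cells (166.5 to 199.3), with no overlap between these ranges. Ccr8 was at 309.2 in ILC2s (280.8 to 367.0) and 7.62 in T cells (5.94 to 12.1), and Il2ra at 235.3 in ILC2s (146.8 to 341.0) and 24.7 in T cells. The ILC2s numbered only 17 to 43 cells per library.

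Dendritic cells stood beside T cells for Il2ra and 2 of the TNF receptor genes. Il2ra was at a median of 33.05 in dendritic cells (28.6 to 81.7), and its range in T cells (9.57 to 34.9) overlapped that. Tnfrsf4 was at a median of 223.5 in dendritic cells and 219.5 in T cells, whose ranges overlapped. Tnfrsf9 was at 252.1 in dendritic cells (45.0 to 513.7), 174.2 in NK cells and 88.3 in T cells; each neighbouring pair overlapped. Nrp1 was led by endothelial cells at 654.5 and cells of the fibroblast and mural gate at 253.6, with 27.5 in T cells. Lrrc32 had the same leading pair, at 38.9 and 18.3, against 3.99 in T cells, and Penk was at 171.6 in the fibroblast and mural gate and 59.1 in T cells. The fibroblast and mural gate held 3 to 26 cells per library, and its Penk UMIs numbered 21 in the control, 0 under anti-PD-1, 5 under YKL-5-124 and 22 in the combination, so its range of 0 to 271.3 CPM overlapped that of T cells.

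**Figure D1:**
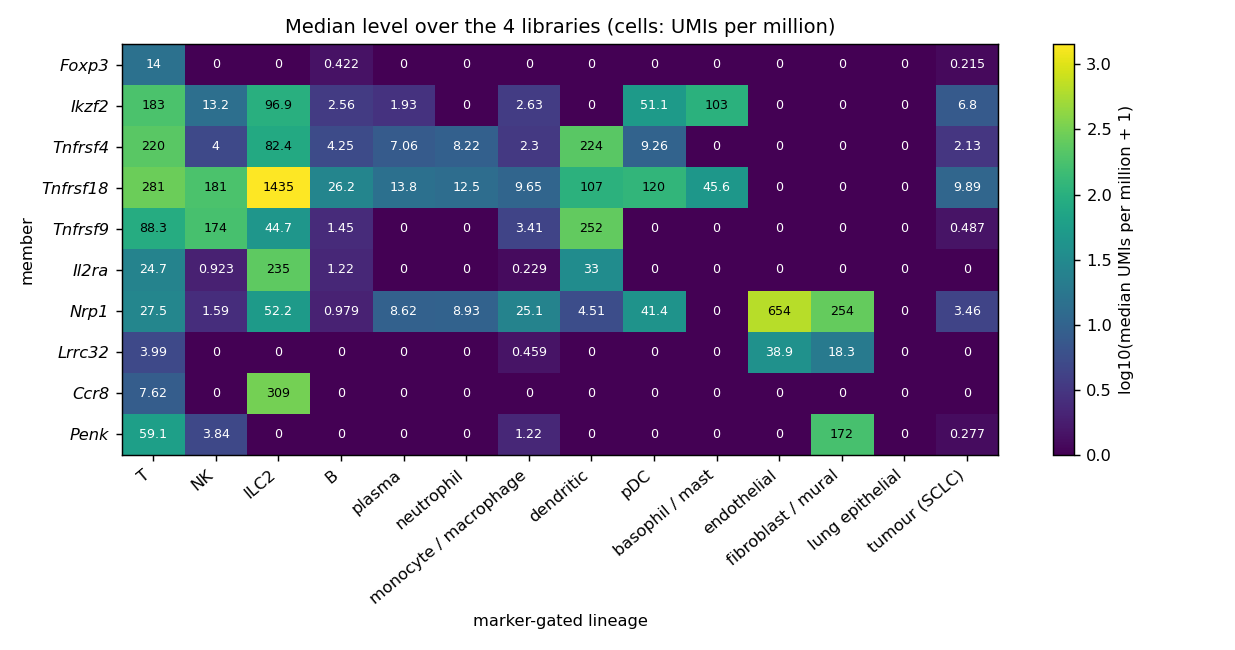
Median level of each member over the 4 libraries in 14 marker-gated lineages, printed in each field in CPM and coloured on a log10 scale of the level plus 1. Foxp3 is at 14 in T cells and at most 0.422 elsewhere, while ILC2s lead for Tnfrsf18, Il2ra and Ccr8, and endothelial cells for Nrp1 and Lrrc32.

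Within T cells, the combination library was the highest of the 4 for both transcription factors. Foxp3 was at 8.41 CPM in the control library (17 UMIs), 13.4 under anti-PD-1 (21), 14.6 under YKL-5-124 (29) and 22.6 in the combination (81). The interval of the combination (17.96 to 28.1) did not overlap that of the control (4.90 to 13.5), and those of both single agents overlapped both. The ratio of combination to control was 2.69 (1.58 to 4.84). Ikzf2, a zinc finger factor of the Ikaros family, was at 114.8, 156.9, 208.8 and 277.7 in the same order, and none of the 4 intervals overlapped. Its ratios to control were 1.37 (1.14 to 1.64), 1.82 (1.55 to 2.14) and 2.42 (2.10 to 2.80). Other genes are annotated over Foxp3, Ikzf2, Tnfrsf18 and Tnfrsf9. At Foxp3, Flicr lies on the same strand, and Ppp1r3f and Ccdc22 on the opposite strand, as Camta1 does at Tnfrsf9. Reads on these members could include transcripts of such genes, those of the opposite strand only if counting ignored strand. No label or header says whether counting used strand.

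Tnfrsf4 had the widest differences between the libraries among the TNF receptor family members. Its level in T cells was 109.4 in the control, 220.7 under anti-PD-1, 218.3 under YKL-5-124 and 410.6 in the combination. The single agents overlapped each other, and the control lay below and the combination above both. The ratios to control were 2.02 (1.70 to 2.40), 1.996 (1.69 to 2.36) and 3.75 (3.26 to 4.34). Its neighbour Tnfrsf18 was at 217.7, 272.4, 290.1 and 333.8, with ratios of up to 1.53 (1.37 to 1.71) for the combination. Tnfrsf9 did not follow that order: it was at 86.1, 105.3, 64.7 and 90.4, the combination stood at 1.05 times the control (0.871 to 1.27), and YKL-5-124 at 0.752 (0.594 to 0.950). In NK cells, Tnfrsf9 was also lowest under YKL-5-124, at 100.7 against 187.1 in the control, 168.0 under anti-PD-1 and 180.5 in the combination, a ratio to control of 0.538 (0.375 to 0.764).

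Il2ra, the alpha chain of the interleukin-2 receptor, split the libraries by YKL-5-124: it was at 14.9 in the control and 9.57 under anti-PD-1, against 34.6 under YKL-5-124 and 34.9 in the combination. The intervals of the first pair overlapped, as did those of the second pair, and the pairs did not overlap each other. With cells holding 3 or more UMIs of 15 genes of G2 and mitosis left out, the log2 ratio of Il2ra to control (10 CPM added) was 0.25 in place of 0.84 under YKL-5-124 and 0.58 in place of 0.85 in the combination, both below the 1.5-fold limit used below. Nrp1 had the same split, at 15.8, 17.9, 37.1 and 49.4, with ratios to control of 2.35 (1.53 to 3.67) for YKL-5-124 and 3.12 (2.13 to 4.70) for the combination. Lrrc32 rested on few UMIs, 4, 7, 7 and 51, or 1.98, 4.47, 3.51 and 14.2 CPM, and only the combination stood apart from the others. Ccr8 was at 5.94, 12.1, 6.02 and 9.21 from 12, 19, 12 and 33 UMIs, and all 4 intervals overlapped. Penk was lowest in the control at 16.8, with 114.8 under anti-PD-1, 69.3 under YKL-5-124 and 48.9 in the combination.

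**Figure D2:**
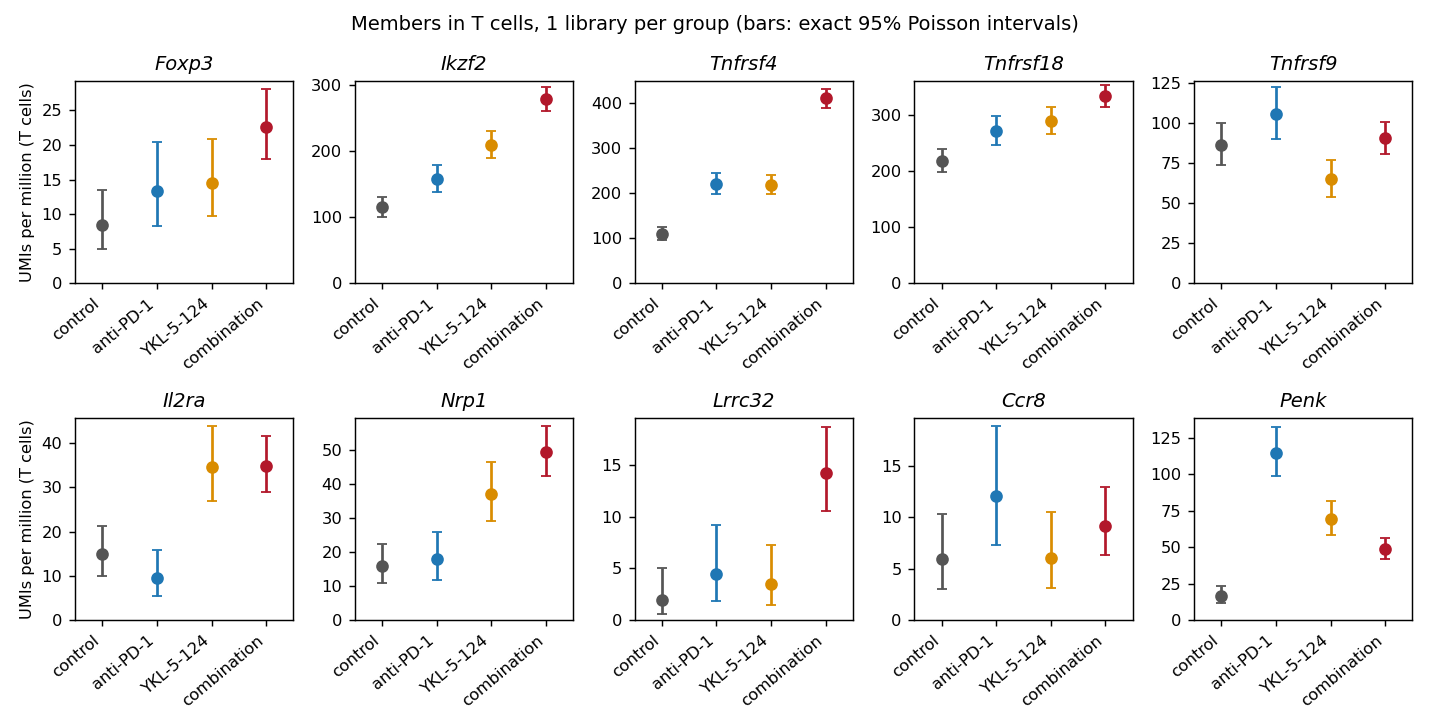
Level of each member in T cells (y axis, CPM, from 0) in the 4 libraries, 1 library per group, with exact 95% Poisson intervals as bars. The combination is highest for Foxp3, Ikzf2, Tnfrsf4, Tnfrsf18, Nrp1 and Lrrc32, Il2ra is at 34.6 and 34.9 in both libraries with YKL-5-124, and Penk is highest under anti-PD-1 at 114.8.

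By a rule of size, a log2 ratio past 1.5-fold with 10 CPM added to both levels, 2 of the 10 members were higher under anti-PD-1 than in the control (Tnfrsf4 and Penk), beside 2.62% of the 6783 genes with a mean of at least 10 CPM. Under YKL-5-124 5 of 10 were higher (Ikzf2, Tnfrsf4, Il2ra, Nrp1 and Penk), beside 5.76% of genes. In the combination 8 of 10 were higher, all but Tnfrsf9 and Ccr8, beside 6.81% of genes. No member was lower in any of these 3 comparisons, beside 0.767%, 0.853% and 1.27% of genes. The members were listed for their T cell levels, so nothing is read from these shares, and the 3 comparisons share the control library. Lrrc32 and Ccr8 were below the mean of 10 CPM in each of the 3. Without the T cells whose barcodes recur in another library, 2, 5 and 7 of 10 were higher. Tnfrsf18 was the one no longer past 1.5-fold in the combination. The share over all genes was not computed without those cells.

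Set against the single agents, the combination was higher than anti-PD-1 for 5 members and lower for 1, beside 3.69% and 1.11% of genes. The higher ones were Il2ra (3.65 times), Lrrc32 (3.19), Nrp1 (2.77), Tnfrsf4 (1.86) and Ikzf2 (1.77), and the lower one was Penk (0.425). The log2 ratio of Penk, -1.09, fell short of 1.5-fold at -0.11 with cells weighted equally, -0.39 without Foxp3 cells and -0.48 thinned to 800 UMIs. Against YKL-5-124 it was higher for Tnfrsf4, 1.88 times (1.69 to 2.10), and Lrrc32, 4.05 times, and lower for none, beside 1.21% and 0.376% of genes. Lrrc32 was below the mean of 10 CPM that those shares require. The count of 2 was 5 without cycling cells and 4 with cells weighted equally, and 1 with 20 CPM added in place of 10. No share over all genes was computed for those settings.

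Transcripts of other cell types in the T cells also differed between the libraries. The 9 ILC2 markers summed to 225.7, 232.2, 308.6 and 562.5 CPM in T cells of the control, anti-PD-1, YKL-5-124 and combination libraries, with Il5 at 0 in the first and second and Il13 at 0 in the second. Of that list 4 markers (Il1rl1, Gata3, Areg and Rora) are also in the list of other regulatory T cell genes below. The 8 dendritic cell markers summed to 17.8, 65.1, 62.7 and 128.7, with Clec9a and Xcr1 at 0 in the control and YKL-5-124 libraries and Zbtb46 at 0 in the control. Lung epithelial markers, 4 to 6 of 8 detected with Foxj1 and Lamp3 at 0 in all 4 libraries, summed to 25.2, 16.6, 45.2 and 107.5. The monocyte and macrophage list, 12 to 14 of 14 detected, summed to 116.3, 134.0, 233.9 and 243.4, and the neutrophil list, 8 to 10 of 11 detected with Ly6g at 0 in all 4 libraries, to 27.7, 55.5, 194.7 and 47.2. The T cell markers themselves were at 8680, 8572, 8551 and 8371. In barcodes of 10 to 100 UMIs, a measure of free RNA, Tnfrsf4 was at 32.5 CPM in the control and 148.4 in the combination. Foxp3 was at 2.66 in the control and 9.64 in the combination there, and Tnfrsf18 at 67.75 and 149.5. The free RNA level of every other member was also higher in the combination than in the control. The part of free RNA and of the dendritic and epithelial transcripts in the members' levels was not tested. With T cells that also pass the NK or ILC2 gate left out, the log2 ratios of combination to control (10 CPM added) were 1.60 for Tnfrsf4, 1.18 for Ikzf2, 1.18 for Nrp1, 0.68 for Foxp3 and 0.49 for Tnfrsf18, the last below the 1.5-fold limit.

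The share of T cells with a Foxp3 UMI was 1.5% in the control library (13 of 868, 0.800 to 2.55%), 1.82% under anti-PD-1 (11 of 606, 0.910 to 3.23%), 3.13% under YKL-5-124 (23 of 734, 2.0 to 4.67%) and 5.10% in the combination (56 of 1098, 3.88 to 6.57%). In B cells, which should lack Foxp3, it was 2 of 626, 0 of 413, 1 of 675 and 0 of 487, at medians of 1531, 1610, 1469 and 1563 UMIs; the zeros allow a share of up to 0.726% and 0.616%. By these intervals the combination was above the control and anti-PD-1 and overlapped YKL-5-124, and both single agents overlapped the control. The share depends on depth, so each cell was also thinned to 800 UMIs, which left out 18, 21, 10 and 25 shallower T cells. The thinned shares were 0.588% (5 of 850), 0.513% (3 of 585), 0.553% (4 of 724) and 1.31% (14 of 1073), beside 1 of 610 B cells in the control and none in the other libraries. Their intervals overlapped: the ratio of combination to control was 2.22 (0.755 to 7.87), and that of YKL-5-124 to control was 0.939, against 2.09 as deposited. At 1200 UMIs the shares were 0.628%, 0.893%, 2.06% and 1.86%. A difference between libraries in the share of cells with a Foxp3 UMI was therefore not detectable at 800 UMIs per cell.

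A wider count over all 10 genes had more cells behind it. The members were listed with their T cell levels already known, so differences in this count between libraries are a description only. Its intervals cover counting error over the cells of 1 library per group. T cells with UMIs of at least 3 members made up 5.53% of the control library (48 of 868), 8.25% of anti-PD-1 (50 of 606), 10.8% of YKL-5-124 (79 of 734) and 22.5% of the combination (247 of 1098). After thinning to 800 UMIs the shares were 2.0% (1.17 to 3.18%), 2.91% (1.70 to 4.61%), 4.42% (3.04 to 6.18%) and 6.62% (5.20 to 8.27%), and the combination lay above the control and anti-PD-1 intervals. At 1200 UMIs they were 1.38% (0.692 to 2.46%), 4.64% (3.06 to 6.73%), 5.58% (3.98 to 7.58%) and 8.23% (6.62 to 10.1%), and the combination lay above the control only. In B cells such cells numbered 2 of 626, 1 of 413, 0 of 675 and 0 of 487.

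Summed over the 4 libraries, the other 9 members were more abundant in T cells with a Foxp3 UMI than in the remaining T cells. Within single libraries Penk, Lrrc32 and Ccr8 went both ways, as given below. In the sum (103 against 3203 cells), all 9 were past 1.5-fold higher, beside 15.5% of 7092 genes higher and 5.03% lower. Without the Foxp3 cell richest in each member, 8 were still past 1.5-fold, and Penk, with 58 of its 96 UMIs in 1 cell, was at 1.42 times, below the limit. Foxp3 defines these cells and is not read here, and the cells with a Foxp3 UMI were deeper, with medians of 2668, 4595, 2997 and 4797 UMIs. Ikzf2 was at 1144, 1098, 1197 and 657.5 CPM in the Foxp3 cells of the control, anti-PD-1, YKL-5-124 and combination libraries, and at 92.5, 126.5, 158.7 and 236.4 in the other T cells. Tnfrsf4 was at 1587, 2014, 1041 and 1059 in the Foxp3 cells, and at 77.4, 162.7, 176.6 and 340.1 in the others. In both genes the Foxp3 cells were higher in all 4 libraries. The ratio to the other T cells was narrowest in the combination, at 2.78 (2.39 to 3.23) for Ikzf2 and 3.11 (2.76 to 3.51) for Tnfrsf4. In the control it was 12.4 and 20.5. Within the Foxp3 cells, the ratio of combination to control was 0.575 (0.421 to 0.799) for Ikzf2 and 0.667 (0.514 to 0.877) for Tnfrsf4. For Tnfrsf18 it was 0.635 (0.458 to 0.897) and for Tnfrsf9 0.384 (0.258 to 0.587). The intervals of Il2ra, Nrp1, Lrrc32 and Penk held 1. Without the richest cells the log2 ratios of the first 4 (10 CPM added) were -0.43, -0.30, -0.40 and -0.64.

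Tnfrsf18, Tnfrsf9 and Il2ra were also higher in the Foxp3 cells of every library than in the other T cells. Their summed ratios were 3.24, 5.995 and 8.04. Against T cells with Cd4 and without Cd8 or Foxp3, Tnfrsf9 was lower in the Foxp3 cells of YKL-5-124, at 166.6 CPM against 269.3. It was higher in those of the control (770.3 against 32.7), anti-PD-1 (1281 against 105.1) and the combination (296.0 against 80.8). Tnfrsf4 was higher in every library, at 1041 against 744.3 under YKL-5-124 and 1059 against 712.4 in the combination. Against all other T cells, Nrp1 was higher by 3.51 times in sum, but only the interval of the combination, 3.23 (2.26 to 4.55), lay above 1. Lrrc32 and Ccr8 rested on 17 UMIs each in Foxp3 cells, and Ccr8 was at 0 in those of the control, Lrrc32 in those of anti-PD-1. Penk went both ways: it was 22.6 times higher in the Foxp3 cells of anti-PD-1, where 58 of their 76 UMIs lay in 1 cell, 0.144 times as high in those of YKL-5-124, with 1 UMI, and 0.800 times in those of the combination (0.428 to 1.38). With each cell thinned to 800 UMIs, Tnfrsf4 was found in 7 of 13 Foxp3 cells of the control against 27 of 837 others. In the combination it was found in 29 of 55 against 124 of 1018. The Foxp3 cells were chosen before thinning, so depth still bears on that choice.

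**Figure D3:**
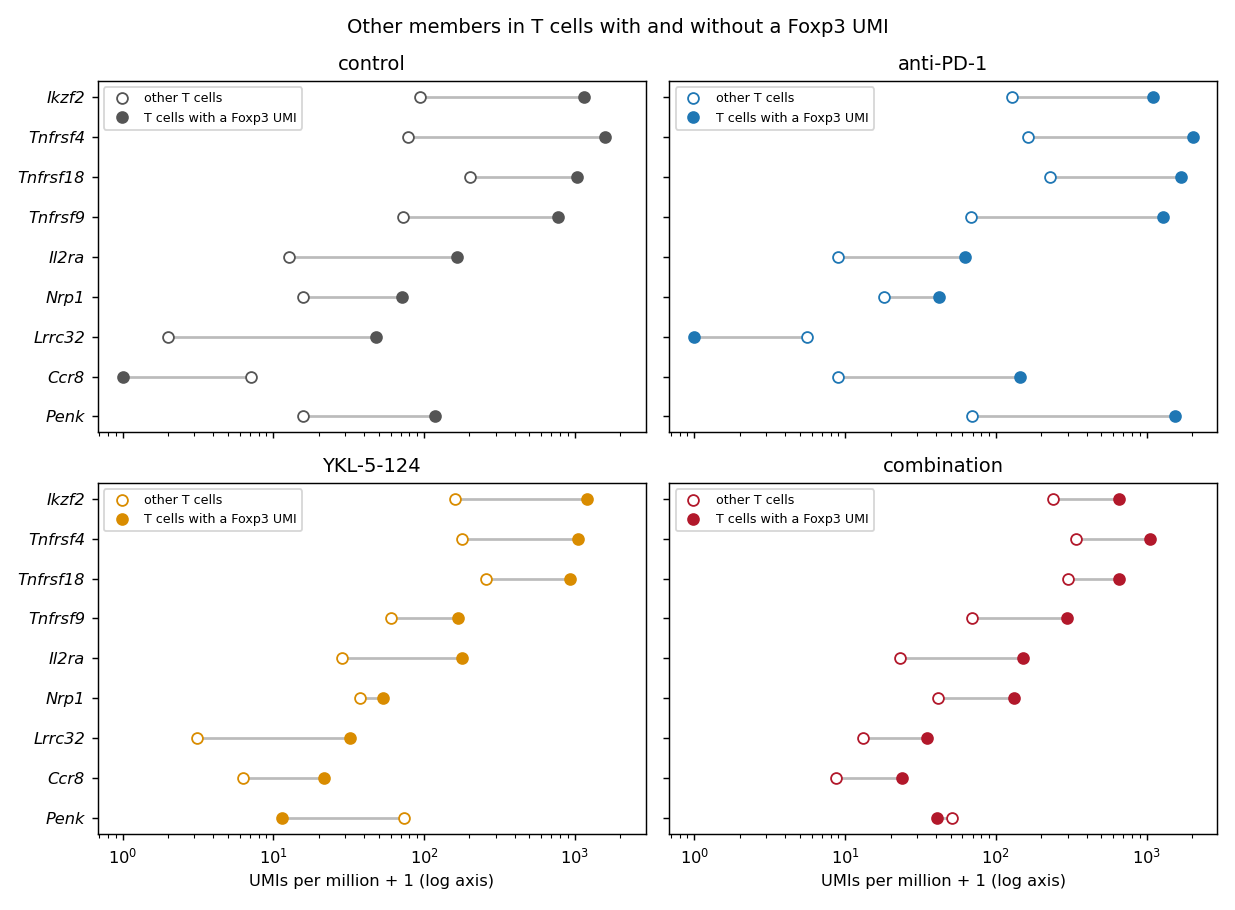
Level of the other 9 members (x axis, CPM plus 1, log scale) in T cells with a Foxp3 UMI (filled) and in the other T cells (open), 1 panel per library. Ikzf2, Tnfrsf4, Tnfrsf18, Tnfrsf9 and Il2ra lie further right in the Foxp3 cells of all 4 libraries, and Penk changes side between libraries.

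Most UMIs of the members in T cells lay outside the cells with a Foxp3 UMI. Those cells held 21.1, 22.0, 27.6 and 23.2% of the T cell Ikzf2 UMIs, and 30.8, 28.6, 23.0 and 25.3% of the Tnfrsf4 UMIs. In T cells with a Cd4 UMI and without Cd8 or Foxp3, Tnfrsf4 was at 310.9, 531.6, 744.3 and 712.4, with ratios to control of 1.71 (1.21 to 2.43), 2.39 (1.76 to 3.31) and 2.29 (1.74 to 3.08). The first was lost with cells weighted equally, at a log2 ratio of 0.18 in place of 0.76, when thinned to 800 UMIs, at 0.19, and without the richest cell of each library, at 0.56. Ikzf2 in these cells was at 98.2, 148.4, 303.6 and 281.1. Both libraries with YKL-5-124 lay about 3 times above the control, at 3.09 (1.81 to 5.555) and 2.86 (1.76 to 4.945). The control level rested on 18 UMIs in 4 of 94 cells, with 8 of these UMIs in 1 cell. Without the richest cell of each library the log2 ratios (10 CPM added) were 2.09 and 2.04. The Cd4 cells numbered 94, 64, 87 and 159, and cells without a detected Foxp3 UMI may still express it.

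In T cells with Cd8 UMIs, Tnfrsf4 was at 32.9, 47.0, 39.7 and 130.6, and the combination stood alone, at 3.97 times the control (2.69 to 6.06). Nrp1 was higher in both libraries with YKL-5-124, at 42.9 and 31.7 against 10.96 in the control and 6.72 under anti-PD-1; its log2 ratio of YKL-5-124 to control, 1.34, was 0.41 without cycling cells and 0.41 thinned. Tnfrsf18 differed little, from 139.7 to 188.9 in Cd8 cells and from 340.0 to 460.3 in Cd4 cells, and every interval of its ratio to control held 1. Tnfrsf9 levels lay in opposite directions from the control in the subsets. In Cd4 cells it was at 32.7, 105.1, 269.3 and 80.8, from 6, 17, 55 and 50 UMIs; in Cd8 cells it was at 87.7, 60.5, 26.8 and 45.0, from 80, 45, 25 and 61 UMIs. Under anti-PD-1, 14 of the 17 UMIs in Cd4 cells lay in 1 cell, and without the richest cell of each library the Tnfrsf9 level was 18.8 against 16.5 in the control, a log2 ratio of 0.12 in place of 1.43. The Cd8 direction turned when the richest 5% of cells were left out, and the log2 ratio of combination to control was then 1.21 against -0.83, and that of YKL-5-124 to control 0.064 against -1.41.

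The UMIs of Penk and Tnfrsf4 were spread over very different numbers of cells. Tnfrsf4 UMIs came from 70, 78, 103 and 290 T cells, and 50% of them lay in 12, 11, 14 and 51 of these. Penk UMIs came from 12, 11, 11 and 29 T cells, and the richest cell alone held 8 of 34, 58 of 180, 76 of 138 and 42 of 175 UMIs. That cell was a Cd8 cell in the control and YKL-5-124 libraries, a Foxp3 cell under anti-PD-1, and a cell with neither or both of Cd4 and Cd8 in the combination. Without the richest cell of each library Penk was at 12.9, 78.1, 31.2 and 37.2, so its ratio to control was 6.05, 2.42 and 2.88 in place of 6.83, 4.12 and 2.90, and the combination was at 1.19 times YKL-5-124 in place of below it. Within Cd8 cells, 34 of 35 UMIs under anti-PD-1 and all 76 under YKL-5-124 lay in 1 cell, and without the richest cells the log2 ratios to control were -0.73 and -0.91 in place of 1.05 and 1.73. In ILC2s of the combination, all 39 Penk UMIs lay in 1 cell.

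**Figure D4:**
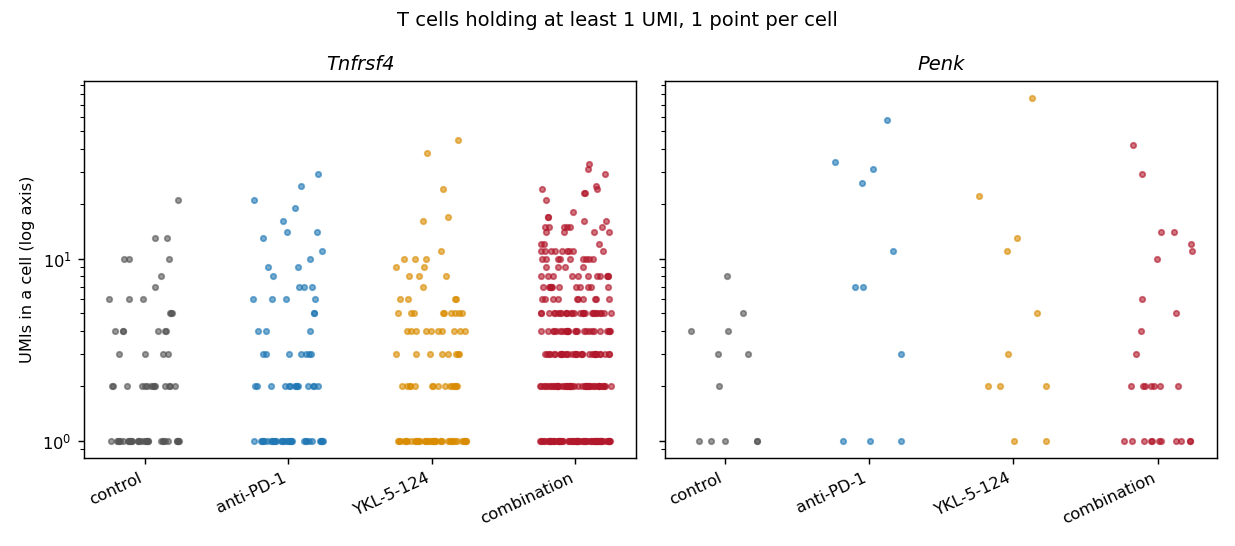
UMIs of Tnfrsf4 and Penk in each T cell that holds at least 1 (y axis, log scale), 1 point per cell, by library; sideways position is only spread. Tnfrsf4 comes from 70 to 290 cells a library, and Penk from 11 to 29, with 1 cell of 76 UMIs under YKL-5-124.

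Transcripts of G2 and mitosis were higher in T cells with at least 3 members than in those with fewer, in every library. In T cells with a Foxp3 UMI the 15 genes of G2 and mitosis summed to 256.8, 1770, 4195 and 2431 CPM. In the other T cells they summed to 415.1, 455.1, 1075 and 891.6, so the control lay the other way. Of the T cells with a Foxp3 UMI, 1 of 13, 2 of 11, 11 of 23 (47.8%) and 20 of 56 (35.7%) held at least 3 UMIs of 15 G2/M genes, against 2.11, 3.03, 6.75 and 7.49% of the other T cells. Thinned to 800 UMIs, the counts were 0 of 13, 2 of 11, 8 of 22 (17.2 to 59.3%) and 9 of 55 (7.77 to 28.8%), against 1.43, 1.05, 3.56 and 3.44%. The intervals of Foxp3 and other T cells did not overlap in the libraries with YKL-5-124, thinned or not, and those of the control overlapped both ways. For anti-PD-1 they overlapped as deposited and stood just apart after thinning, at 2.28 to 51.8% against 0.384 to 2.26%. In T cells with at least 3 members the 15 genes summed to 1853, 1635, 3737 and 1993 CPM, against 229.7, 306.0, 516.2 and 484.3 in the T cells with fewer. Thinned, the sums were 1087, 951.1, 2917 and 1118 against 115.0, 155.4, 257.4 and 215.1. The cells with a Foxp3 UMI and those with at least 3 members were chosen before thinning, so depth still bears on that choice. With cells of 3 or more G2/M UMIs left out, the log2 ratio of YKL-5-124 to control was 0.45 for Ikzf2 and 0.25 for Il2ra. The values with these cells were 0.81 and 0.84. Past 1.5-fold were then 3 of 10 members in place of 5, and no share over all genes was computed for that setting.

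**Figure D5:**
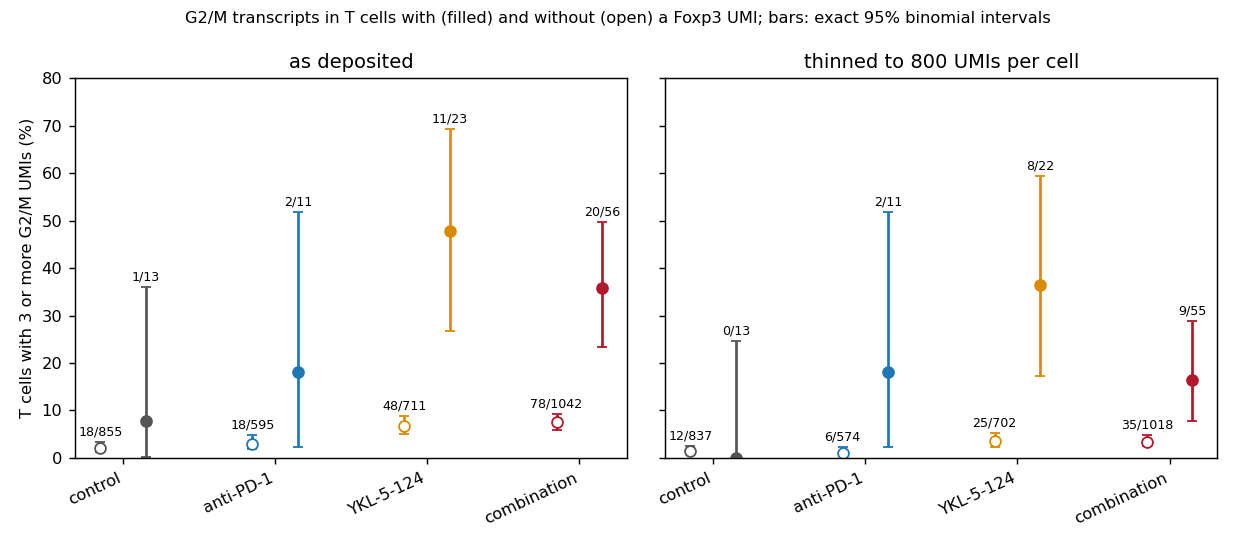
Share of T cells with at least 3 G2/M UMIs (y axis, %) among cells with (filled) and without (open) a Foxp3 UMI, with cells over cells printed and exact 95% binomial intervals as bars, as deposited (left) and thinned to 800 UMIs per cell (right). Foxp3 cells of the YKL-5-124 library stand at 47.8% and 36.4%, and those of the control at 1 of 13 and 0 of 13. The Foxp3 cells were chosen before thinning.

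Other genes of the regulatory T cell programme were counted in T cells by the same rule of size, beside 2.62, 5.76 and 6.81% of all genes higher in the 3 treated groups in their order above. Of 25 listed, 1 of 17 measured was higher than control under anti-PD-1, 6 of 16 under YKL-5-124 and 10 of 18 in the combination, and none was lower; the list medians were 0.16, 0.27 and 0.72 on the log2 scale, against 0.03, 0.09 and 0.07 over all genes. Ctla4, an inhibitory receptor, was at 77.7, 102.1, 169.6 and 215.5. In the combination Gata3, a factor of type 2 lymphocytes, was at 164.4 against 51.5 (3.19 times), Cd83 at 86.2 against 26.2, and Il1rl1, the interleukin-33 receptor, at 42.7 against 3.46 (153 against 7 UMIs). Klrg1 was at 16.3, 28.1, 46.7 and 34.1.

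The ligands of these receptors were partly made by other cells. Of those measured in T cells, 3 of 5, 2 of 4 and 4 of 5 were higher than control in the 3 treated groups, beside the same 2.62, 5.76 and 6.81% of genes, among them Ccl1, the ligand of Ccr8, at 9.40, 47.9, 82.8 and 112.8, and Tgfb1 at 49.98, 95.1, 99.9 and 120.0. Ccl1 was led by ILC2s at a median of 1445.5, as was Il2 at 370.6. Tnfsf9, the ligand of Tnfrsf9, was led by dendritic cells at 371.3, followed by the monocyte and macrophage gate at 58.9. Tnfsf4, the ligand of Tnfrsf4, was close to the detection limit, with 5 UMIs in all dendritic cells and 25 in all T cells.

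Downstream lists are read against the same 2.62, 5.76 and 6.81% of genes higher. Among 11 genes of interleukin-2 receptor signalling, 1, 2 and 3 were higher than control, with list medians of 0.05, 0.13 and -0.02 on the log2 scale against 0.03, 0.09 and 0.07 over all genes, including the feedback inhibitor Socs1 at 19.3, 49.8, 43.7 and 51.9 and, in the combination, Cish at 51.1 against 30.7. Among genes of TNF receptor and NF-kB signalling, 0 of 14, 1 of 14 and 4 of 15 were higher, with medians of 0.12, 0.11 and 0.20; the 1 of 14 is close to the share of all genes. In the combination these were Nfkb1 (1.95 times), Rel (1.67), Nfkbia (1.56) and Nfkbie (2.27). Of 10 genes of naive and conventional T cells, 1, 0 and 2 were lower, beside 0.767, 0.853 and 1.27% of all genes lower. None of the 10 was higher. Lef1 was at 244.8 against 430.5 and Ccr7 at 549.1 against 838.3 in the combination. All 15 G2/M genes were higher under YKL-5-124, 14 of 15 in the combination and 0 of 15 under anti-PD-1, with medians of 1.21, 0.89 and 0.21 on the log2 scale.

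Outside the members, the 10 genes with the highest log2 ratio in T cells with a Foxp3 UMI against the others, over the 4 libraries summed, were Retnla, Ccl17, Klrg1, Ctla4, Cxcl2, Cd81, Mki67, Glrx, Phlda1 and Itgav. Klrg1 was 7.47 times, Ctla4 5.20 times, Cd81 4.81 times, Glrx 4.22 times and Itgav 5.37 times as high, each in the same direction in all 4 libraries. Cxcl2 (0 against 33.9 CPM), Mki67 (23.3 against 27.3) and Phlda1 (0 against 35.4) were lower in the Foxp3 cells of the control. The 10 genes were chosen by their ratio over these same libraries, so these directions are a description only. Ctla4 was found in 84 of the 103 Foxp3 cells, Glrx in 57 and Cd81 in 49. All 154 Retnla UMIs lay in 1 of these cells and 203 of the 354 Ccl17 UMIs lay in 1, and both genes were found in Foxp3 cells of the combination library only.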

How the data were processed

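The deposited files are UMI counts per gene and barcode, raw over the full barcode list, made by the authors with bcl2fastq and Cell Ranger per the submitters' processing notes; per the file headers the software version is 3.0.0. Those notes name hg19, while the gene identifiers are mouse Ensembl identifiers, so the build of the counting, like its strand, is not stated in what was used here; 30934 identifiers were located in GENCODE M21 (GRCm38) and 119 were not. Total UMIs were 22384282, 17329001, 22357198 and 22950622 in the control, anti-PD-1, YKL-5-124 and combination matrices.

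A cell passed a lineage gate with at least 3 distinct markers, and a cell whose second lineage scored at least 50% of the first was left out, except between T, NK and ILC2 gates. This scoring was chosen after marker values were seen. No doublet caller was run. UMIs were summed per library and cell set and scaled to CPM; Poisson, binomial and conditional binomial intervals are exact at 95% and cover counting error only. With 1 library per group no test was possible; the 1.5-fold rule used log2 ratios with 10 CPM added, over genes with a mean of at least 10 CPM. Thinning used 1 seeded draw. The count of 3 UMIs is the floor for a zero. The members and gene lists were chosen with earlier results of these data known. Named genes were the members, up to 4 listed genes with the largest log2 ratio per comparison, and the 10 genes highest in Foxp3 cells with at least 50 CPM and 30 UMIs; Klrg1, Tgfb1, Tnfsf4, Il2, Cish, Rel and Nfkbia were added for their known roles or to complete small counts, after their values were seen. Scripts were tested on simulated data. Alternatives changed 1 choice at a time: gates, UMI and mitochondrial limits, rich, cycling, shared or Foxp3 cells left out, pseudocount, weighting, scaling, thinning and expression minimum. The tools were Python 3.11.15 with Matplotlib 3.10.9, pandas 2.3.3, SciPy 1.17.1 and NumPy 2.4.6.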

Additional observations from a re-analysis of the deposited data

Results flagged for a closer look

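Summed Penk levels in T cells lay in opposite directions with each agent depending on the other, and these directions rest on few cells. On the log2 scale with 10 CPM added, anti-PD-1 stood 2.22 above the control without YKL-5-124 and at -0.43 with it (combination against YKL-5-124), and YKL-5-124 stood 1.56 above the control without anti-PD-1 and at -1.09 with it (combination against anti-PD-1). The difference between these effects was not tested, since each group has 1 library, and Penk UMIs came from 11 to 29 T cells per library. Without the richest cell of each library the combination stood 0.19 above YKL-5-124, so that the direction with anti-PD-1 was the same in both; it was also above without the richest 5% of cells (0.41), without cycling cells (0.49), with cells weighted equally (0.65) and thinned (0.12). Against anti-PD-1 the combination was at -0.90 without the richest cell, and short of 1.5-fold with equal weights (-0.11), without Foxp3 cells (-0.39) and thinned (-0.48).

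Tnfrsf9 lay in opposite directions in T cells with Cd4 and with Cd8. Under YKL-5-124 the log2 ratio to control was 2.71 in Cd4 cells and -1.41 in Cd8 cells, and in the combination it was 1.09 and -0.83. The difference between the subsets was not tested; the Cd4 cells of the control held 6 Tnfrsf9 UMIs in 4 cells. The Cd8 values turned to 0.064 and 1.21 without the richest 5% of cells.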

How the results depend on the processing

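No paired analysis was possible because each group has 1 library, and leaving out a replicate was not possible for the same reason. Over 19 alternatives, 702 of the 1103 recomputed values of single members had been past 1.5-fold. Of these, 693 kept their direction, 661 were still past 1.5-fold, and 9 turned. Part of this agreement was fixed in advance. Another pseudocount cannot turn a direction, and the Cd4 and Cd8 values already left out Foxp3 cells. Values short of 1.5-fold at first were not counted as turned. One of these, Penk in all T cells for the combination against YKL-5-124, also changed sign, as given above. The 9 log2 ratios that turned among those past 1.5-fold were all in Cd8 cells. For Tnfrsf9 under YKL-5-124 they were 0.064 without the richest 5% of cells and 0.15 thinned to 800 UMIs, and in the combination 1.21 and 0.28, and 0.036 with cells weighted equally. For Penk under YKL-5-124 they were -0.19 without the richest cells and -0.68 without cycling cells, and for Il2ra -0.23 without cycling cells and -0.83 thinned. The YKL-5-124 to control ratio of the share of T cells with a Foxp3 UMI was 0.939 thinned. Without the richest cell of each library, Penk in Cd8 cells also turned, to -0.73 under anti-PD-1 and -0.91 under YKL-5-124. The cause of these turns was not tested.

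Without cycling cells the members past 1.5-fold numbered 3 under YKL-5-124 and 5 for the combination against YKL-5-124, other regulatory T cell genes 3 under YKL-5-124, and G2/M genes 0 under YKL-5-124 and 0 in the combination, by construction for the last list. With cells weighted equally the members numbered 5 under anti-PD-1 and 4 for the combination against YKL-5-124. With a pseudocount of 20, 1 in place of 2 was higher in the latter comparison. No share over all genes was computed without cycling cells, with equal weights or with that pseudocount. With a minimum of 50 CPM fewer genes were tested. Over all genes, 41 of 2474, 130 of 2561 and 166 of 2542 were then higher in the 3 treated groups. Ligands numbered 1 under anti-PD-1, 1 under YKL-5-124 and 2 in the combination, and interleukin-2 signalling genes 0, 0 and 0. NF-kB genes numbered 0 under YKL-5-124, and G2/M genes 6 under YKL-5-124 and 5 in the combination. Genes below the minimum drop out of a list, so a smaller count need not be a lost call. With no minimum, other regulatory T cell genes numbered 2 under anti-PD-1, beside 238 of 14369 genes. Tnfrsf18 in the combination lay near the limit, at 0.59, and fell under it in many settings, down to 0.44 with equal weights. Penk in the combination against anti-PD-1 was -0.11 with equal weights, -0.39 without Foxp3 cells and -0.48 thinned, against -1.09. With median-of-ratios scaling, 73.0% in place of 87.1% of the genes past 1.5-fold were higher under YKL-5-124, and 73.7% in place of 84.3% in the combination. Leaving out shared barcodes left 7 of 10 members higher in the combination, without Tnfrsf18 at 0.57; this alternative, the richest cell of each member left out (in T cells, the Cd4 and Cd8 cells and the Foxp3 cells), and the NK and ILC2 exclusion were chosen after seeing the data.

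Depth limits what can be said of Lrrc32, Ccr8 and Foxp3, which had 4 to 81 UMIs in the T cells of a library.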
